A study of Mus musculus with 87 samples.

Results

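The genes described here are 10 structural genes that mark epithelial or mesenchymal cells: the keratin genes Krt7, Krt8, Krt18 and Krt19, the cadherin genes Cdh1, Cdh2 and Cdh3, the epithelial surface genes Epcam and Cldn6, and the vimentin gene Vim. They were read by row name in 13 comparison tables of 26171 gene symbols each, and all 10 were found in every table. The set was chosen because Krt8 was higher in embryonic stem cells (ESC) with constitutive Suz12 exon 4 (CSex4) than in wild-type (WT) cells, so the genes were chosen by the values of that comparison, which are given without a test. In every other comparison a gene was called where the adjusted p of the authors' deposited table, taken over the whole table, was under 0.05.

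Keratins are intermediate filament proteins that work in pairs of a type II and a type I chain. Krt8 (type II) and Krt18 (type I) form the first keratin filaments of simple epithelia, and Krt7 (type II) and Krt19 (type I) join them in many ducts and in trophoblast. Vimentin is the type III filament protein of mesenchymal cells and of neural precursors. E-cadherin (Cdh1) holds epithelial and stem cells together at adherens junctions, N-cadherin (Cdh2) replaces it when the neural plate forms, and P-cadherin (Cdh3) is found in several epithelia. Epcam is an epithelial surface adhesion protein, and Cldn6 is a tight junction claudin of embryonic epithelia. Suz12 is a core subunit of PRC2, the complex that methylates lysine 27 of histone H3 (H3K27me3), a mark of silent genes.

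The RNA-seq samples are labelled as the mouse ESC line 129-B13, grown in serum with LIF, and the neuronal precursors (NP) were made from them as embryoid bodies that received retinoic acid from day 4 and were harvested on day 8. The 32 RNA-seq samples were 18 of ESC, with 3 each of WT and KO and 2 each of the other 6 groups, and 14 of NP, with 4 of WT and 2 of each other group; the 3D groups were ESC only. CSex4 cells always include exon 4, Deltaex4 is described in the labels as a knock-out that deletes exon 4, KO is the full Suz12 knock-out, and KO-L and KO-S are knock-out cells given back the long (with exon 4) or the short Suz12 isoform. KO-L3D and KO-S3D were rescued from the Rosa26 locus with the same isoforms carrying the 3D mutation, which lies downstream of exon 4, so every rescue group shares the knock-out background. The labels name no clones and do not say that samples of a group came from separate cultures, so the p-values measure only the spread between these samples, which may be technical.

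To place the genes, promoter sequences from RefSeq (GRCm38.p6) are shown for 4 of them, the 250 bases before the gene start, 5′ to 3′ on the gene's strand. Krt8 (chr15:102004343-102004592, minus strand) and Krt18 (chr15:102027966-102028215, plus strand) are the keratin pair that moved most alike. Vim (chr2:13574061-13574310, plus strand) is the mesenchymal counterpart whose start lies in an H3K27me3 and a Suz12 region of the deposited lists. Epcam (chr17:87635729-87635978, plus strand) has a region in neither list. Capitals mark CACCTG or its reverse complement CAGGTG, the E-box form that Zeb and Snai factors are known to bind, and TATAAA or its reverse complement TTTATA, on both strands; no marked match overlaps another.
Krt8: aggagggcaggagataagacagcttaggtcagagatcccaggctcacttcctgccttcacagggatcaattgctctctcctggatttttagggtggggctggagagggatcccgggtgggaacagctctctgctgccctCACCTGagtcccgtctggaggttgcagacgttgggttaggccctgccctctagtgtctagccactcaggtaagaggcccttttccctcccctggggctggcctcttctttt
Krt18: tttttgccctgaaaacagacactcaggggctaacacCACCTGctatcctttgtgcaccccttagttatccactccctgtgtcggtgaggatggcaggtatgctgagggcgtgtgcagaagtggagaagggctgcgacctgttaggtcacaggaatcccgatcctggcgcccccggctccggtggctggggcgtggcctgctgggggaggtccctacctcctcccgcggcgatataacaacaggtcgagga
Vim: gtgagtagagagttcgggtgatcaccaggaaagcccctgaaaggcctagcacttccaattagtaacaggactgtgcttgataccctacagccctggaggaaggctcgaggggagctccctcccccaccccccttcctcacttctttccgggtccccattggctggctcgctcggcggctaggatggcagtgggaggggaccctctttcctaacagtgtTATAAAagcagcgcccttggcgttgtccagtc
Epcam: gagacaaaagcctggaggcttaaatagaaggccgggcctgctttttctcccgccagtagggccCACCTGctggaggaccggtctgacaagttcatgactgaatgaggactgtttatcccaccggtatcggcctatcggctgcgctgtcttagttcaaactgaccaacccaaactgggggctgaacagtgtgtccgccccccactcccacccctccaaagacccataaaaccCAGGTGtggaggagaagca
The E-box form occurred 1 time each in Krt8 and Krt18, 2 times in Epcam and 0 times in Vim, and 17.2% of 32851 promoters of the same length held it. TATAAA was found 1 time in Vim and 0 times in the other promoters shown, against 12.4% of promoters. Krt8 held 3 CpG dinucleotides in its window, Krt18 12, Vim 8 and Epcam 8, and the median over all promoters was 6.0. Krt7 (16 CpG, 1 E-box match) and Cldn6 (9 CpG, 1 match) were searched in the same way. A match is a description of letters in this window and was not tested for binding.

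The deposited tables give no value per library, so the reads of each library were recovered from the mean that each table prints, and are given as scaled reads: whole reads divided by the library's size factor, on 1 scale for all ESC libraries and another for all NP libraries. Letters A to D name libraries within a group and are not the labels' replicate numbers. The same letter in different groups does not mark matched libraries. In the 6 ESC tables with 2 libraries beside WT, WT C has no partner and the fold change of the paired fit rests on WT A and B. Suz12, the targeted gene, had 8652, 5797 and 4443 scaled reads in the ESC WT libraries and 1227, 2529 and 1638 in the ESC KO libraries, and in NP it had 6179, 5409.8, 3349.7 and 3844 in WT and 1339.9 and 1289.8 in KO. In the ESC rescues it had 3621 and 3206 in KO-L and 3954 and 3982 in KO-S, above every KO and below every WT library, and 9691 and 4734 in KO-S3D, within or above the WT range. The libraries labelled KO-L3D had 2483 and 1560.3, within the KO range, so that Suz12 did not separate them from KO, and each value of theirs below is given as that of the libraries so labelled. In the NP rescues it had 3177 and 3545 in KO-L and 2451 and 3182.3 in KO-S, above both KO libraries. The ESC Deltaex4 libraries had 3894 and 2170.7, below every WT library. Whether these counts include the transcript of a rescue is not given in the sources used here. Pou5f1, the core pluripotency factor, had 17833 or more scaled reads in every ESC library. In NP the summed scaled reads of 7 neural precursor markers were 12974 to 45337 in WT and 3254 to 3738 in KO, where Hes5 (1.2 and 2.2 scaled reads) and Fabp7 (4.9 and 1.1) were near 0. A few libraries stood apart from their group. ESC WT A had 48996 summed scaled reads of 9 primitive endoderm markers against 4348 and 4547 in WT B and C, and both KO-S libraries had 73585 and 51973. NP WT B was the lowest NP WT library in neural markers (12974, against 37292 to 45337) and the highest in primitive endoderm markers (119189.7, against 34018 to 95928). The NP CSex4 libraries differed from each other by more than sampling, with a chi-square per gene of 2.3 over 116 genes (p = 3.27e-14), but by less than any other pair of a group (44.7 to 1208.3 per gene).

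**Figure D1:**
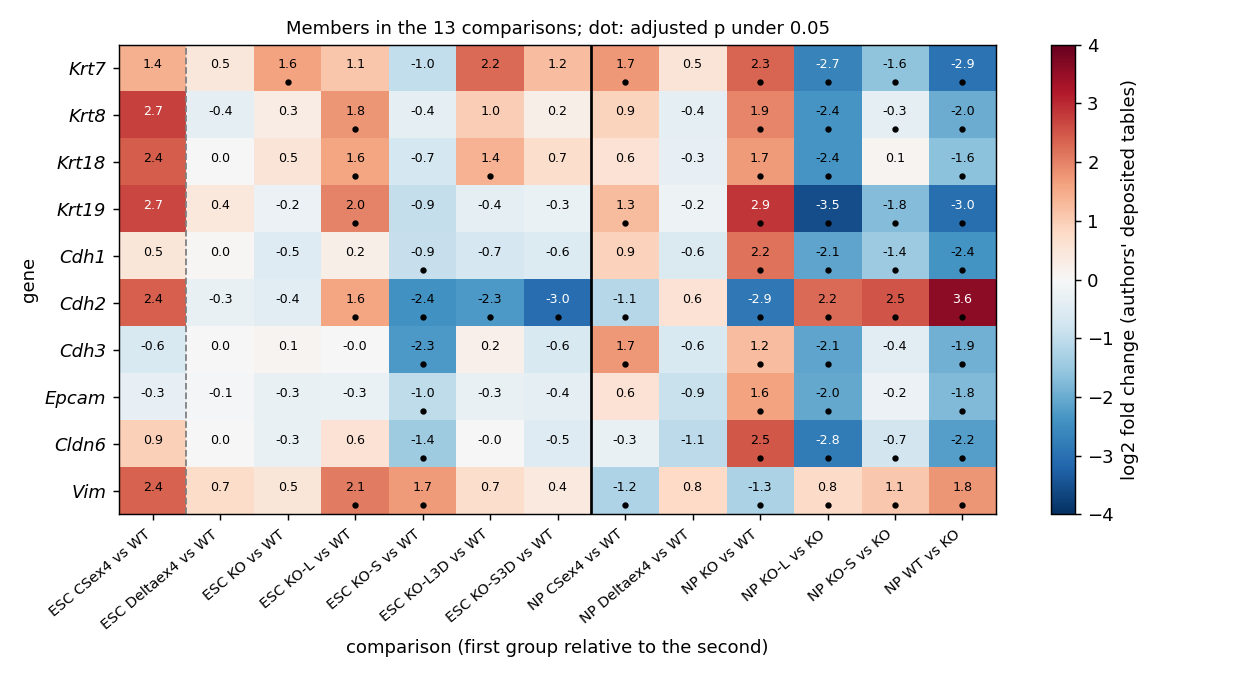
Log2 fold change of the 10 genes (rows) in the 13 comparisons of the authors' deposited tables (columns; the first group relative to the second), with ESC left and NP right of the black line. Dots mark an adjusted p under 0.05; none is drawn left of the dashed line, where the comparison chose the genes. All 10 rows carry a dot in NP KO vs WT, NP KO-L vs KO and NP WT vs KO, and none does in either Deltaex4 comparison.

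In ESC with constitutive exon 4 the keratins, Cdh2 and Vim lay above WT, and these values are a description. Krt8 had 2087, 3756 and 3916 scaled reads in the WT libraries and 10662 and 31937 in the CSex4 libraries, and Krt18 had 1687, 2610.3 and 2912 against 6319 and 19672. Both CSex4 libraries lay above all 3 WT libraries for either gene, with library B the higher. The authors' deposited table gave log2 fold changes of 2.72 ± 0.45 (± standard error throughout) for Krt8 and 2.41 ± 0.44 for Krt18. Krt19 had 1578 and 3529 scaled reads in CSex4 against 190.5, 722 and 1069.5 in WT, and Krt7 had 367 and 772 against 159.8, 250 and 267. Cdh2, the neural cadherin, had 863 and 1365 against 98.5, 434 and 357, and Vim had 3665 and 7727 against 565, 1948 and 1359. Again no CSex4 library overlapped WT. Cdh1 was at 26159 and 28229.6 in CSex4 and 15496, 24993 and 22730.3 in WT, and the ratio of Cdh2 to Cdh1 reads was 0.0330 and 0.0483 in CSex4 and 0.00636 to 0.0173 in WT. Ordered by adjusted p, Cdh2 (2.38 ± 0.53) was the member just inside the threshold and Krt7 (1.41 ± 0.48) the member just outside it in the authors' deposited table. The table called 3 of the 10 genes and 2.41% of all genes tested, from which nothing is read here. The summed pluripotency markers were 37919 and 56951 in CSex4 against 76937 to 96786 in WT, and the summed fibroblast markers were 902 and 1438 against 169 to 410, with all 6 detected in CSex4 and in WT. The summed neural precursor markers were 7168 and 12885 in CSex4, above every WT library (2005 to 5377). Of these 7 markers 4 had an adjusted p and 0 were called. Sox1 (55.3 and 46.6 scaled reads), Pax6 (119.1 and 131.0) and Tubb3 (2517 and 1648.5) lay within the WT range. Hes5 and Fabp7 had 4.3 or fewer in CSex4, so the higher sum lay in the remaining markers, Nes and Dcx. Of 7 trophoblast markers the authors' deposited table called 2 higher, Cdx2 (3.07 ± 0.82) and Gata3 (2.48 ± 0.74), which is a description here as well. Tpbpa was at 0, and the sums were 1839.5 and 2056.5 against 2022 to 2940 in WT. In WT, Cdx2, Elf5, Gata3 and Hand1 had 76.9 or fewer scaled reads each per library, and Tpbpa 0. The WT sums thus lay mostly in Ascl2 and Tfap2c, and Tfap2c is also among the epithelial regulators. The part of these 4 marker lists in the values of the 10 genes was not tested. Without CSex4 B the mean log2 ratio of Krt18 was 1.59, and without WT A that of Cdh2 was 1.32.

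**Figure D2:**
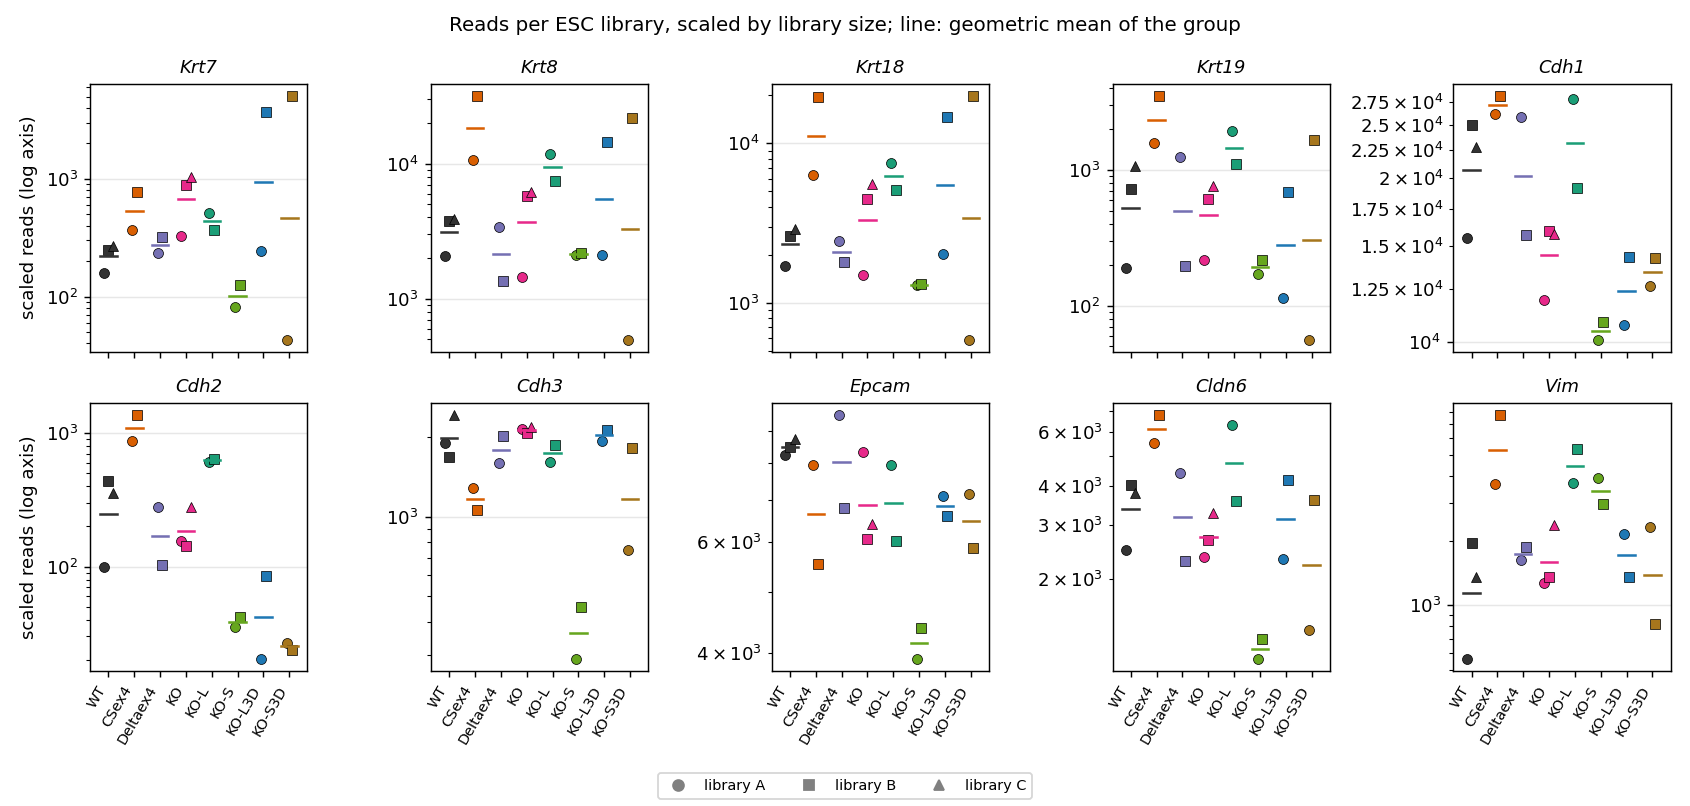
Scaled reads (log axis) of the 10 genes in each of the 18 ESC libraries by group; each point is a library, marker shapes give its letter and lines the geometric mean of the group. Krt8 runs from 498 in KO-S3D A to 31937 in CSex4 B, and the A and B libraries labelled KO-L3D and KO-S3D lie far apart for Krt7, Krt8 and Krt18.

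Full loss of Suz12 in ESC was accompanied by a rise of 1 gene of the set, Krt7. It had 159.8, 250 and 267 scaled reads in WT and 327, 887 and 1036 in KO, and no library overlapped between the groups. The authors' deposited table gave a log2 fold change of 1.62 ± 0.38 (adjusted p = 0.000296, n = 3 and 3), with 18.3% of all genes called. Of 7 markers of trophoblast, which is known to express Krt7, 3 were called higher, led by Gata3 (3.27 ± 0.41 in the authors' deposited table), with sums of 2846 to 3637 in KO against 2022 to 2940 in WT, and their part in Krt7 was not tested. Krt8 had 1455, 5780.2 and 6164 in KO, so that KO A lay below every WT library and KO B and C above, and its fold change of 0.29 ± 0.75 in the authors' deposited table did not pass (adjusted p = 0.859). The other 8 genes did not pass either, with log2 fold changes between -0.52 (Cdh1) and 0.53 (Krt18) in the authors' deposited table. Deletion of exon 4 called none of the 10 genes and none of 20263 genes tested in the authors' deposited table, and 0 of the 10 had an unadjusted p under 0.05. Krt8 had 3412 and 1360.3 scaled reads in those 2 libraries, 1 within the WT range and 1 below it.

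Return of the long isoform in ESC was accompanied by more keratin, Cdh2 and Vim than in WT. Krt8 had 11910.2 and 7471 scaled reads in KO-L, Krt18 7578 and 5084, Krt19 1939.6 and 1107, Cdh2 610.4 and 636 and Vim 3709.8 and 5380.5. All of these lay above all 3 WT libraries given above. In the authors' deposited table the log2 fold changes were 1.76 ± 0.35 for Krt8 (adjusted p = 0.000207), 1.57 ± 0.33 for Krt18 (adjusted p = 0.000514), 1.98 ± 0.49 for Krt19 (adjusted p = 0.00542), 1.58 ± 0.48 for Cdh2 (adjusted p = 0.0484) and 2.09 ± 0.34 for Vim (adjusted p = 1.10e-06). That was 5 of 10 genes called higher, beside 1.46% of all genes tested. This table and the CSex4 table share the WT libraries, so that their likeness is not independent. The median over the 10 genes was 1.35, beside -0.02 over all genes tested. Desmoplakin (Dsp), which ties keratin filaments to desmosomes, rose by 1.76 ± 0.34, and Tjp3, a tight junction scaffold, changed by -1.52 ± 0.34 in the authors' deposited table. Col3a1, a fibrillar collagen, rose by 4.01 ± 0.72 in the same authors' deposited table, and 10 of 17 other mesenchymal genes were called higher. The summed fibroblast markers were 2150 and 2173 in KO-L against 169 to 410 in WT, and the summed neural precursor markers 7645 and 6119 against 2005 to 5377. Of the 7 neural precursor markers 4 had an adjusted p and 0 were called. Neither Sox1 (27.4 and 46.0 scaled reads) nor Pax6 (117.9 and 153.7) lay above the WT range. Of 7 trophoblast markers 2 were called higher (sums of 2134 and 2215 against 2022 to 2940). The part of these lists was not tested. Cdh2 lost its call where the adjustment ran over every gene with a p-value (adjusted p = 0.0717) or over genes with a baseMean of at least 10 (adjusted p = 0.0514). Without WT A the mean log2 ratio from recovered reads was 1.02 for Krt19, 0.52 for Cdh2 and 1.20 for Vim, and without WT B it was 2.66 for Cdh2.

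Return of the short isoform in ESC was accompanied by lower values of the cadherins, Epcam and Cldn6 and higher Vim than in WT. Cdh1 had 10105 and 10874 scaled reads in KO-S, Cdh3 290.5 and 456, Epcam 3921 and 4379.7 and Cldn6 1110.0 and 1280.1. In WT these genes had 15496, 24993 and 22730.3 for Cdh1, 1895, 1684 and 2431 for Cdh3, 8247, 8482 and 8721 for Epcam and 2497, 4030.1 and 3812 for Cldn6, and every KO-S library lay below every WT library. Cdh2 had 35.6 and 42.3 and was also below WT, while Vim had 3935 and 2982 and was above it. The authors' deposited table gave log2 fold changes of -2.29 ± 0.30 for Cdh3 (adjusted p = 1.19e-11), -1.41 ± 0.31 for Cldn6 (adjusted p = 0.000188), -1.01 ± 0.26 for Epcam (adjusted p = 0.00266), -0.91 ± 0.28 for Cdh1 (adjusted p = 0.0227) and -2.42 ± 0.57 for Cdh2 (adjusted p = 0.000890). Vim rose by 1.70 ± 0.35 in the authors' deposited table (adjusted p = 4.87e-05). Thus 5 of 10 genes were called lower, beside 3.63% of all genes, and 1 higher, beside 4.28%. None of the 4 keratins passed (log2 fold changes from -0.97 for Krt7 to -0.39 for Krt8 in the authors' deposited table). Zeb1, a repressor of Cdh1, rose by 3.24 ± 0.34, and Grhl2, an activator of epithelial genes, changed by -2.35 ± 0.28 in the authors' deposited table. Both were called in the same direction in ESC KO (Zeb1 1.38 ± 0.28, Grhl2 -1.99 ± 0.21 in the authors' deposited table). Grhl2 was also lower in the libraries labelled KO-L3D (-1.58 ± 0.30 in the authors' deposited table). Cdh1, Cdh3, Epcam and Cldn6 were not called in either of these comparisons. The part of Zeb1 and Grhl2 was not tested. Of 11 epithelial regulators 5 were called lower, and of 24 junction partners 6 were lower, led by Ocln (-3.55 ± 0.41 in the authors' deposited table). The primitive endoderm markers given above were high in both KO-S libraries and in WT A. Of 7 trophoblast markers 1 was called higher, Hand1 (2.28 ± 0.60 in the authors' deposited table), and 2 were called lower, Ascl2 and Tfap2c. The summed trophoblast markers were 854 and 1202 in KO-S against 2022 to 2940 in WT, where the sums lay mostly in Ascl2 and Tfap2c. The part of either list was not tested. Against WT A alone the mean log2 ratio from recovered reads was -0.56 for Cdh1 and -1.34 for Cdh2, and against WT B alone it was 0.81 for Vim.

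The rescue isoforms were then set against each other. Short minus long, taken as the difference of the 2 log2 fold changes with a normal test over 14378 genes and chosen after the values were seen, was lower for 7 of 10 genes, beside 2.59% of genes lower. Cdh2 differed by -4.0 ± 0.75 (adjusted p = 2.31e-05), Krt19 by -2.92 ± 0.68 (adjusted p = 0.00143), Krt18 by -2.26 ± 0.44 (adjusted p = 6.81e-05) and Krt8 by -2.14 ± 0.47 (adjusted p = 0.000489). Krt7, Cdh3 and Cldn6 passed as well, and Cdh1, Epcam and Vim did not. These differences and those that follow come from tables that share WT libraries, whose shared spread the error counts more than once. Against KO, the short isoform was lower for Cdh3 (difference -2.40 ± 0.36, adjusted p = 1.26e-08) and Krt7 (-2.59 ± 0.63, adjusted p = 0.00233), 2 of 10 beside 2.63% of genes, and at an adjusted p under 0.10 also for Cldn6 (adjusted p = 0.0717) and Cdh2 (adjusted p = 0.0869). Long minus KO passed for 0 of 10 genes beside 0.589% of genes in either direction, where 5 genes had an unadjusted p under 0.05; for Vim it did not pass (difference 1.60 ± 0.48, adjusted p = 0.0969).

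With the 3D mutation the keratin values spread widely between libraries, as some did in groups without it. Krt7 spanned 117.52-fold in KO-S3D and 15.07-fold in the libraries labelled KO-L3D, beside 12.55-fold in NP Deltaex4. Krt8 spanned 44.17-fold and 6.89-fold in the same 3D groups, beside 4.48-fold in NP Deltaex4 and 4.24-fold in ESC KO. In KO-S3D, Krt8 had 498 and 21978 scaled reads in libraries A and B, Krt18 586 and 19905, Krt7 43.2 and 5078 and Krt19 56.1 and 1652. Library A lay below all WT libraries and B above all of them for these 4 genes. The standard errors in the authors' deposited table were 1.97 for Krt8, 1.82 for Krt18, 2.15 for Krt7 and 2.03 for Krt19, larger than in 99.8% to 99.9% of genes within 2-fold of the same mean, and no keratin passed. Epcam, by contrast, had 7143 and 5866 and a standard error of 0.34. Of trophoblast markers, Hand1 had 66.6 scaled reads in library A and 5147 in B, and Elf5 had 2.3 and 114. In the libraries labelled KO-L3D, Krt7 had 244 and 3678, Krt8 2098 and 14458 and Krt18 2014 and 14735, with B the higher. Library B of this group is not matched to B of KO-S3D. Hand1 had 1271 scaled reads in KO-L3D A and 5286 in B, and Elf5 had 144 and 479.8. Summed over 7 trophoblast markers, KO-S3D had 1439 and 8441 and KO-L3D 3399 and 9371, against 2022 to 2940 in WT, with Tpbpa at 0 reads in WT and KO-L3D; their part in the keratin values was not tested. Krt18 was called higher in the libraries labelled KO-L3D in the authors' deposited table (1.38 ± 0.42, adjusted p = 0.0104), but without library B its mean log2 ratio was -0.06.

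**Figure D3:**
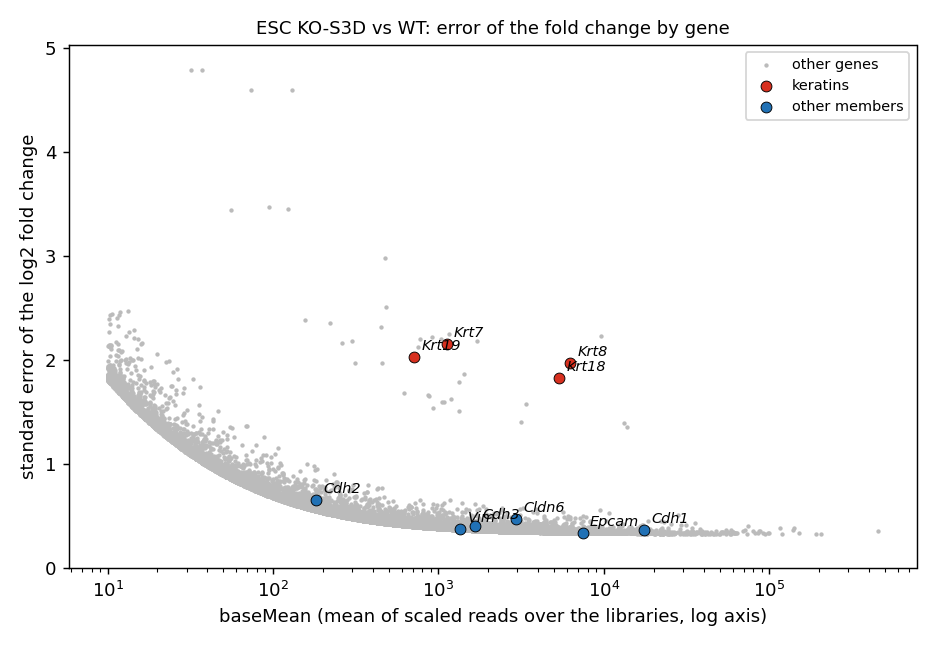
Standard error of the log2 fold change (vertical axis) against baseMean (log axis) in the authors' deposited table of ESC KO-S3D vs WT, for genes with a baseMean of at least 10; red points are the 4 keratins and blue points the other 6 genes. The keratins stand at 1.82 to 2.15, and the other 6 genes at 0.34 to 0.65.

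Cdh2 was called lower in KO-S3D and in the libraries labelled KO-L3D. It had 20.5 and 85.2 scaled reads in those labelled KO-L3D and 26.9 and 23.7 in KO-S3D against 98.5, 434 and 357 in WT, with no overlap. The authors' deposited tables gave log2 fold changes of -2.31 ± 0.49 (adjusted p = 7.98e-05) and -3.04 ± 0.65 (adjusted p = 0.000495). With Krt18 that made 2 of 10 genes called in the libraries labelled KO-L3D beside 18.3% of all genes, and Cdh2 was the 1 gene of 10 called in KO-S3D beside 3.23%. The libraries labelled KO-L3D minus KO-L differed by -3.89 ± 0.69 for Cdh2 (adjusted p = 5.78e-06) and by -2.38 ± 0.62 for Krt19 (adjusted p = 0.00630), 2 of 10 genes beside 3.12% of genes lower. For the short isoform the same difference passed for 0 of 10 genes by this normal test, beside 0.732% of genes, and 2 of 10 had an unadjusted p under 0.05. Against WT A alone, the mean log2 ratio of Cdh2 was -1.24 in the libraries labelled KO-L3D and -1.96 in KO-S3D.

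In neuronal precursors, loss of Suz12 was accompanied by higher values of all 4 keratins, Cdh1, Cdh3, Epcam and Cldn6 and lower values of Cdh2 and Vim. Cdh1 had 3036, 12069, 3429 and 7798 scaled reads in the 4 WT libraries (A to D) and 25022 and 29435 in the KO libraries, and Cdh2 had 8627, 3243, 8904 and 8647 in WT and 732 and 733 in KO. The KO libraries lay outside the WT range for both cadherins, with WT B nearest to them. The ratio of Cdh2 to Cdh1 reads was 0.0293 and 0.0249 in KO and 0.269 to 2.84 in WT. Krt8 had 4482, 10590.2, 5243 and 8585 in WT and 28417 and 25056 in KO, Krt19 had 1444, 3849, 1651 and 2736 and 19062 and 15455, and Cldn6 had 1858, 7038, 3174 and 5910.5 and 27371 and 14629.8. Vim had 36549, 10697, 29346 and 25467 in WT and 9652 and 6844 in KO, so that WT B came close to KO A. Again no KO library overlapped WT for these 4 genes.

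Against WT A and B, the authors' deposited table called 8 of 10 genes higher in NP KO, beside 11.6% of all genes, and 2 of 10 lower, beside 9.85%. The log2 fold changes were 2.86 ± 0.37 for Krt19 (adjusted p = 5.00e-13), 2.47 ± 0.36 for Cldn6, 2.33 ± 0.35 for Krt7, 2.16 ± 0.45 for Cdh1 and 1.95 ± 0.36 for Krt8 (adjusted p = 1.57e-06) in the authors' deposited table. Cdh2 fell, with -2.85 ± 0.40 (adjusted p = 6.14e-11), and so did Vim, with -1.28 ± 0.46 (adjusted p = 0.0286), in the authors' deposited table. The smallest rise was that of Cdh3 (1.24 ± 0.44, adjusted p = 0.0286, authors' deposited table). A second authors' deposited table set WT C and D against the same KO libraries and called the same 10 genes, each in the same direction, with Cdh2 3.58 ± 0.26 and Krt19 -3.01 ± 0.30 in WT relative to KO, beside 15.6% of genes higher and 17.3% lower in WT. Without WT A the mean log2 ratio of KO to WT B was 0.47 for Cdh3, 0.78 for Epcam, 1.01 for Krt18, 1.17 for Cdh1, 1.51 for Cldn6 and -0.40 for Vim, and without WT C that of Cdh3 in the second table was -1.24. In bulk samples, fewer cells of a type and less RNA per cell cannot be told apart.

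**Figure D4:**
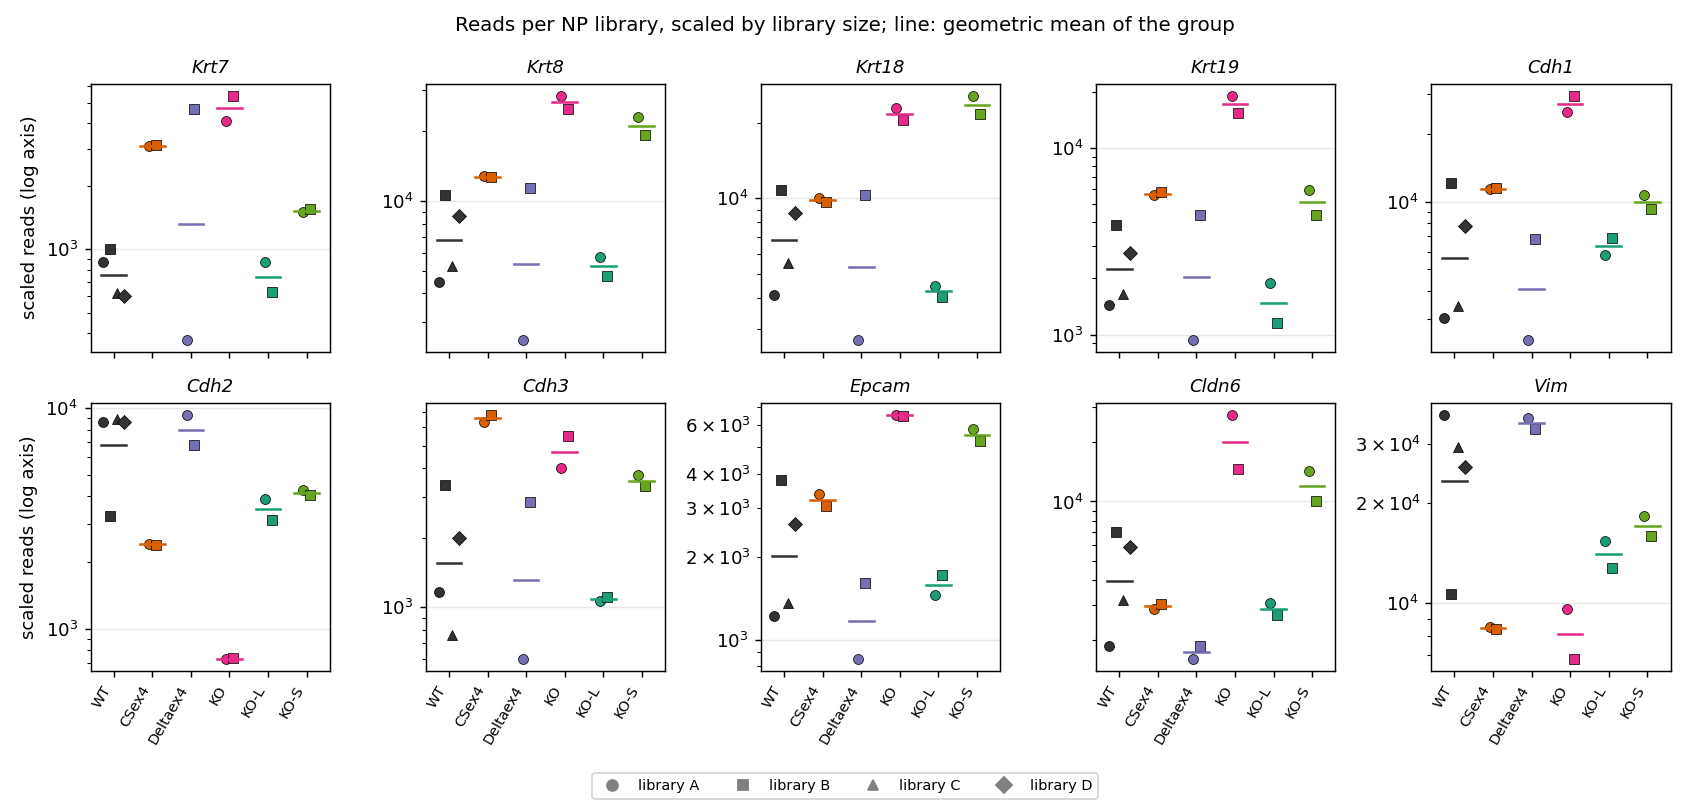
Scaled reads (log axis) of the 10 genes in each of the 14 NP libraries by group; each point is a library, marker shapes give its letter and lines the geometric mean of the group. The KO libraries lie at 25056 and 28417 for Krt8 and at 732 and 733 for Cdh2, and KO-S stays near KO for Krt8 and Krt18 where KO-L lies near WT.

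In NP KO against WT, of 24 junction partners 13 were called higher and 0 lower, led by Perp (3.35 ± 0.38), a desmosomal membrane protein, and Cldn3 (3.12 ± 0.37), a tight junction claudin, in the authors' deposited table. Of 11 epithelial regulators 9 were higher and 0 lower, among them the transcription factor Grhl3 (3.40 ± 0.42 in the authors' deposited table). Of 10 other keratins 6 were higher, led by Krt4 (7.38 ± 0.69), a keratin of stratified mucosa, in the authors' deposited table. Zeb1 and Zeb2, which repress Cdh1, were lower in the authors' deposited table (-3.37 ± 0.38 and -3.98 ± 0.37). None of the other 4 EMT factors was called against WT A and B. Against WT C and D, Zeb1 and Zeb2 were again lower in KO, while Twist2 and Snai1 were called higher in KO. Their values in WT relative to KO were -2.02 ± 0.64 for Twist2 and -1.01 ± 0.37 for Snai1 in the authors' deposited table. Of 12 other intermediate filament genes 4 were lower, led by the neuronal Ina (-4.19 ± 0.49 in the authors' deposited table), and 1 higher, the nuclear lamin gene Lmna (1.46 ± 0.40, adjusted p = 0.00269, in the authors' deposited table). Of 17 mesenchymal genes 6 were higher and 3 lower in KO against WT A and B, while Vim was lower. Against WT C and D, 11 of the 17 were higher and 0 lower in KO. Neural precursor markers were lower for 6 of 7 genes and surface ectoderm markers higher for 4 of 6. Trophoblast markers were higher for 3 of 7, led by Elf5 (3.12 ± 0.56) and Cdx2 (2.16 ± 0.45), and lower for Tpbpa (-4.66 ± 0.80) in the authors' deposited table, with sums of 3392 and 5712 in KO against 1263 to 2937 in WT. Primitive endoderm markers were higher for 3 of 9, led by Foxa2 (2.21 ± 0.46) and Gata4 (1.85 ± 0.35) in the authors' deposited table, with sums of 77035 and 87899 against 34018 to 119189.7. Against WT C and D, 6 of 7 trophoblast and 3 of 9 primitive endoderm markers were higher in KO. Of 6 pluripotency markers, Klf4 was higher (1.47 ± 0.44) and Sox2 lower (-2.86 ± 0.34) against WT A and B in the authors' deposited table. Their sums were 3852 and 10412 in KO against 6304 to 13447 in WT. Against WT C and D, 4 of the 6 were higher in KO and 1 lower. In WT relative to KO, Pou5f1 was -2.55 ± 0.46 and Sox2 2.82 ± 0.32 in the authors' deposited table. The part of these lists in the values of the 10 genes was not tested.

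The isoform rescues differed in NP. With the long isoform, Krt8 had 5751 and 4767 scaled reads, Krt18 4476 and 4018, Epcam 1449 and 1724 and Cldn6 3088 and 2669, close to or within the WT range. With the short isoform, Krt8 had 22962 and 19207, Krt18 25631 and 21727, Epcam 5814 and 5237 and Cldn6 14276 and 10083, above all WT libraries. Krt19 (5948 and 4395) and Krt7 (1505 and 1557) were also above all WT libraries with the short isoform. Cdh1 (10687 and 9266) lay within the WT range of 3036 to 12069. Cdh2 had 3877 and 3119.7 with the long and 4249.8 and 4038 with the short isoform, between KO and most of WT in both. The authors' deposited table of KO-L vs KO called 8 of 10 genes lower, beside 13.8% of genes, and Cdh2 and Vim higher, beside 10.9%. In the authors' deposited table of KO-S vs KO 5 of 10 genes were lower, beside 18.0%, and Cdh2 and Vim higher, beside 16.4%. The largest falls in that authors' deposited table were Krt19 (-1.75 ± 0.15, adjusted p = 1.39e-29), Krt7 (-1.62 ± 0.18, adjusted p = 2.29e-18) and Cdh1 (-1.45 ± 0.16, adjusted p = 8.76e-18). Krt18 (0.12 ± 0.14), Epcam (-0.24 ± 0.16) and Cdh3 (-0.41 ± 0.19) did not pass with the short isoform in the authors' deposited table, and their 95% intervals were -0.16 to 0.40, -0.55 to 0.07 and -0.78 to -0.05. Krt8 was called lower with the short isoform by a small step (-0.35 ± 0.14 in the authors' deposited table, adjusted p = 0.0471), which was lost where the adjustment ran over every gene with a p-value (adjusted p = 0.0610) and was -0.22 without KO-S B, and the value of Cldn6 went from -0.74 to -0.29 without KO A.

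The difference between the rescues was tested over 15615 genes, and 7 of 10 members were higher with the short isoform, beside 5.71% of genes. Krt18 differed by 2.48 ± 0.23 (adjusted p = 4.26e-24), Cldn6 by 2.06 ± 0.27 (adjusted p = 2.70e-12), Krt8 by 2.0 ± 0.23 (adjusted p = 9.84e-16) and Epcam by 1.80 ± 0.25 (adjusted p = 1.46e-10). Krt19, Cdh3 and Krt7 passed as well. Cdh1 (0.66 ± 0.24, adjusted p = 0.0575), Cdh2 (0.25 ± 0.28, adjusted p = 0.725) and Vim (0.28 ± 0.24, adjusted p = 0.596) did not. Both tables share the KO libraries, whose spread this error counts more than once. In ESC the same 2 isoforms were ordered the other way for Krt8, Krt18, Krt19, Krt7, Cdh3 and Cldn6, and that reversal between cell types was not tested. Grhl2 was lower with the long isoform than in KO (-3.66 ± 0.27 in the authors' deposited table), and had 131 and 147 scaled reads there against 1227 and 1474 with the short isoform. Summed fibroblast markers were 18689 and 20239 in KO-L against 955 to 6188 in WT, beside the values of Vim in that group. Neural precursor markers were higher than in KO for 7 of 7 genes with the short isoform, and for 5 of 7 with the long, where 1 was lower. Primitive endoderm markers were lower for 9 of 9 genes with the short and 8 of 9 with the long isoform, and surface ectoderm markers for 3 of 6 and 5 of 6. Trophoblast markers were lower for 6 of 7 genes with the short isoform, and with the long 2 were lower and 2 higher. Of 6 pluripotency markers 4 were higher and 1 lower with the long isoform, with sums of 18560.1 and 27139 there, 6183 and 7323 with the short isoform and 3852 and 10412 in KO. The part of these lists in the rescue values was not tested.

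Constitutive exon 4 in NP was accompanied by higher Krt7, Krt19 and Cdh3 and lower Cdh2 and Vim. Krt7 had 3094 and 3138 scaled reads in CSex4 against 871, 1004, 622 and 603 in WT, Cdh3 6349 and 6789.7 against 1164, 3381, 757 and 1987, and Krt19 5599 and 5801, above all 4 WT libraries in each case; Cdh2 (2429.6 and 2394) and Vim (8488 and 8397) lay below all of them. The authors' deposited table, which used WT A and B, gave 1.74 ± 0.32 for Krt7 (adjusted p = 4.98e-06), 1.73 ± 0.39 for Cdh3 (adjusted p = 0.000601) and 1.27 ± 0.38 for Krt19 (adjusted p = 0.0197). Cdh2 (-1.13 ± 0.38, adjusted p = 0.0489) and Vim (-1.23 ± 0.40, adjusted p = 0.0417) were lower in the authors' deposited table. That was 3 of 10 genes higher, beside 4.08% of genes, and 2 of 10 lower, beside 1.45%. Krt8 (12759 and 12711 scaled reads; 0.89 ± 0.36, adjusted p = 0.146) did not pass in the authors' deposited table. Set beside ESC CSex4, where Cdh2 was 2.38 ± 0.53 and Vim 2.35 ± 1.14 in the authors' deposited table, the sign of both genes was opposite, and this difference was not tested because the ESC values chose the genes. Without WT A the mean log2 ratio was 0.57 for Krt19, 0.96 for Cdh3, -0.43 for Cdh2 and -0.34 for Vim, and the small spread between the NP CSex4 libraries is given above. Where the adjustment ran over every gene with a p-value, Cdh2 (adjusted p = 0.0668) and Vim (adjusted p = 0.0570) lost their calls, as did Cdh2 over genes with a baseMean of at least 10 (adjusted p = 0.0506). Pluripotency markers were higher for 4 of 6 genes and trophoblast markers for 4 of 7, with summed scaled reads of 37894 and 38747 against 6304 to 13447 in WT for the first list and 9805 and 9837 against 1263 to 2937 for the second. Neural precursor markers were lower for 3 of 7 genes, led by Sox1 (-1.36 ± 0.37) and Pax6 (-1.33 ± 0.33) in the authors' deposited table, and their sums of 12682 and 12673 lay below every WT library (12974 to 45337). The part of the 3 lists was not tested. Deletion of exon 4 called 0 of 10 genes in the authors' deposited table, beside 0.0809% of genes, with 2 of 10 at an unadjusted p under 0.05. Krt7 had 372 and 4666 in its 2 libraries, which spanned the whole WT range. The summed trophoblast markers of these libraries were 895 and 5604 in the same order, against 1263 to 2937 in WT, and their part was not tested.

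The response to the knock-out differed between NP and ESC for 6 of the 10 genes, tested as the difference of the 2 log2 fold changes over 14631 genes from separate libraries. Cldn6 was 2.76 ± 0.42 higher in its response in NP (adjusted p = 8.31e-09), Cdh1 2.68 ± 0.51 (adjusted p = 7.91e-06), Krt19 3.08 ± 0.94 (adjusted p = 0.0116) and Epcam 1.90 ± 0.45 (adjusted p = 0.000516). Cdh2 differed by -2.41 ± 0.56 (adjusted p = 0.000349) and Vim by -1.78 ± 0.57 (adjusted p = 0.0180). So 4 of 10 responses were higher in NP beside 6.37% of genes, and 2 of 10 lower beside 7.97%. Krt7, which rose in both cell types, differed by 0.71 ± 0.51 (adjusted p = 0.420), and Krt8, Krt18 and Cdh3 did not pass. For the exon 4 deletion the same difference passed for 0 of 10 genes by this normal test, beside 0.00710% of genes, and 0 of 10 had an unadjusted p under 0.05.

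Krt8 and Krt18 kept a narrow ratio while both varied widely. The ratio of Krt8 to Krt18 reads ran from 0.76 to 1.69 over the 18 ESC libraries, where Krt8 itself spanned 64.2-fold, and from 0.88 to 1.31 over the 14 NP libraries, where Krt8 spanned 11.2-fold. Across the 13 comparisons the log2 fold change of Krt18 was the most like that of Krt8 (Pearson r = 0.977 among 11290 genes with a baseMean of at least 50), followed by Tmem43 (0.953), BC021767 (0.944), Ahnak (0.942) and Cgn (0.939). Krt19 was at 0.938, Cldn6 at 0.902, Cdh2 at -0.325 and Vim at -0.100. These are descriptions over 13 comparisons that share libraries. They include ESC CSex4, which chose the genes, and both NP KO vs WT and NP WT vs KO, which use the same KO libraries with the sign turned.

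**Figure D5:**
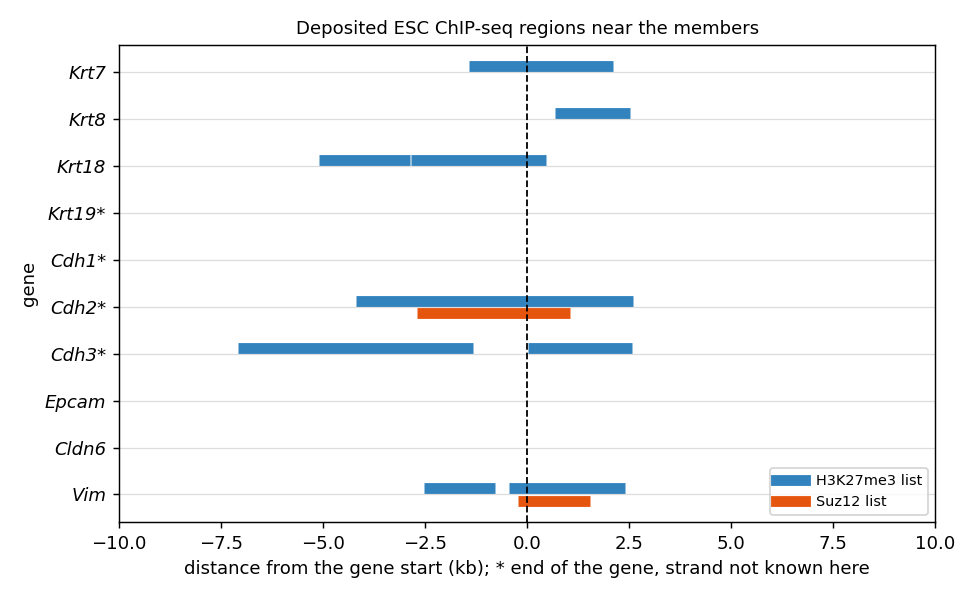
Regions of the 2 deposited ESC ChIP-seq lists within 10 kb of each gene, drawn by distance (kb) from the gene start in the direction of transcription (dashed line at 0); starred genes are drawn from an end of the gene in genome direction, since the table used gives no strand. Vim and Cdh2 have a listed region of both kinds at the plotted point. Krt19, Cdh1, Epcam and Cldn6 have no region in either list, which does not show that they lack H3K27me3 or Suz12.

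At the genes themselves, 6 of 10 members had an H3K27me3 region within 2500 bp of the start (or of either end, where strand was not known), and 15.0% of 27025 symbols had one at a start. Krt7 (chr15:101410971-101414512), Krt18 (chr15:102025370-102028683) and Vim (chr2:13573877-13576707) had a region over the start. At Krt8 a region lay inside the gene, from 693 to 2522 bases past the start (chr15:102001820-102003649). Cdh3 had regions on both sides of an end of the gene, the nearer at 18 bases (chr8:106510870-106513419), and Cdh2 had 1 of 6782 bases over an end. The Suz12 list, shorter at 2865 regions against 6882, held regions at Vim (chr2:13574089-13575856) and Cdh2 only, 2 of 10 members, beside 7.79% of symbols. By name, both lists hold DiffBind regions with WT and not all regions of either kind. The lists state neither a direction of change nor the group set against WT, so they show only where the authors' regions lie. A gene without a listed region was not shown to lack H3K27me3 or Suz12. Krt19 (chr11:100140810-100145926) and Cdh1 (chr8:106603350-106670247) had no region within 10 kb of either end, nor had Epcam (chr17:87635979-87651127) or Cldn6 (chr17:23679348-23682446) within 10 kb of the start.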

How the data were processed

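Of 87 mouse samples, the 32 RNA-seq samples enter through 13 comparison tables and the 55 ChIP-seq samples through 2 region lists. Per the submitters' processing notes, the tools were Bowtie, TopHat, DiffBind and DESeq2 and the builds mm10 and dm3, with no versions or settings. Per the file headers, the deposited tables hold per gene a mean normalised count signal (baseMean), a log2 fold change with its standard error, a test statistic (score), and a p-value with its adjusted p. The deposited tables are paired fits, per the file names. The authors' tests are the main result, and no count test between groups was run. Samples were grouped by the labels, and the deposited files name no library columns.

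From the tables, Python 3.11.15 with pandas 2.3.3, numpy 2.4.6, scipy 1.17.1 and sympy 1.14.0 was used to recover whole reads per library from baseMean, by seeking whole reads that give the printed means of all tables sharing a library. All 123 list genes and 150 of 150 random genes were recovered, and the 32 libraries found per group equal the labels' numbers. Which libraries form a group is an inference from the tables that share them. On simulated data 118 of 120 gene sets came back exactly and 2 wrongly. Recovered reads were not used to test groups against each other; a chi-square test compared libraries within a group, and Dixon's rule the NP WT libraries. The summed baseMean, a measure of depth, was 26085140 to 31499803 per table, and reads without molecular identifiers are not independent molecules.

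Differences between comparisons were tested with a two-sided normal test on the difference of log2 fold changes, with the root of the summed squared errors, over genes with a baseMean of at least 10, adjusted by Benjamini-Hochberg and tested on simulated data. The members and lists were chosen with earlier results of these data known. Named are all 10 members, Suz12 and the 5 genes most like Krt8. Of each list, at most 2 called genes per direction and comparison with the largest change are named. Other marker genes (Pou5f1, Hand1, Elf5, Hes5, Fabp7, Tpbpa, Sox1, Pax6, Tubb3, Nes, Dcx) were named after their values were seen. Alternatives were other thresholds, adjustment sets, windows, another WT pair and leaving out libraries; the threshold of 0.10 for differences was added after the data were seen. Regions were set against RefSeq GRCm38.p6 positions.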

Additional observations from a re-analysis of the deposited data

Results flagged for a closer look

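The response to loss of Suz12 differed between NP and ESC by the test of the difference itself for 6 genes. The log2 difference, NP minus ESC, was 3.08 for Krt19, 2.68 for Cdh1, 1.90 for Epcam and 2.76 for Cldn6, and it was -2.41 for Cdh2 and -1.78 for Vim. In the 4 NP WT libraries Cdh2 had 1 library far below the others, with 3243.4 scaled reads in WT B against 8627, 8647 and 8904. Its gap to the nearest library was 0.951 of the whole range, above Dixon's 95% critical value for 4 samples, which chance passes in about 1 in 20 groups. All 10 genes were examined in this way, and Cdh2 was the only one to pass.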

How the results depend on the processing

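The count of members called moved in 2 comparisons. In ESC KO-L3D it was 2, with 1 at an adjusted p under 0.01 and 4 at 0.10, and in NP CSex4 it was 5, with 2 at 0.01 and 3 where the adjustment ran over every gene with a p-value. In the other comparisons it stayed within 1.5 times under each threshold and adjustment tried. The 8 difference counts were recomputed at 0.01, at 0.10 (added after the data were seen) and with no minimum of baseMean. They moved by over 1.5 times, or from 0, only at 0.10, for KO-S minus KO (2 to 4), KO-L minus KO (0 to 1) and KO-S3D minus KO-S (0 to 1), all in ESC. At 0.01 the normal test lost Krt19 (adjusted p = 0.0116) and Vim (adjusted p = 0.0180) for the knock-out response, NP minus ESC. It also lost Krt7 (adjusted p = 0.0449) for ESC KO-S minus KO-L. No region count moved by over 1.5 times in windows of 1000 and 10000 bp. With the other pair of NP WT libraries all 10 calls of NP KO held. Leaving out 1 library at a time, from recovered reads and with no test, changed the sign of 1 of 60 called values, Krt18 in ESC KO-L3D (-0.06 to 2.81), and of 41 of 70 values not called. The 60 include the 3 called in ESC CSex4, the comparison that chose the genes, and those 3 are a description only. The deposited tables are themselves paired fits, per their names. No paired analysis was possible because whole reads were recovered for 123 list genes and 150 random genes and not for the whole table, so no fit across genes, with or without a replicate block, was made here. Tests with a library left out were not run.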
